A study of Mus musculus with 10 samples.

Results

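Homeostatic microglia genes are the genes by which resting microglia, the resident macrophages of the brain, are recognised. The set described here has 9 members, Tmem119, P2ry12, P2ry13, Cx3cr1, Csf1r, Gpr34, Siglech, Sall1 and Aif1, chosen by symbol from the 27343 genes of the count table, and all 9 were found in it. RNA came from the whole hippocampus of male wild-type C57BL/6J mice aged 2 months. In the 5 Visudyne mice (libraries 1 to 5) verteporfin, a photosensitizer, was injected into the cisterna magna and converted with red light of 689 nm through the skull, which ablates meningeal lymphatic vessels. The 5 vehicle mice (libraries 6 to 10) received vehicle injections and, per the labels, the same light step. Both groups had the procedure again after 2 weeks, swam the Morris water maze for spatial learning another 2 weeks later, and were dissected 3 days after it. The question here is whether these microglial transcripts differ between hippocampi of mice with ablated and intact meningeal lymphatics.

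Microglia survey the tissue with moving processes and depend on signals from their surroundings. Their purine receptors sense nucleotides released by active or injured cells, Cx3cr1 binds fractalkine displayed by neurons, and Csf1r passes on the survival signals of Csf1 and Il34. Many transcripts of this resting state, though not all, become less abundant when microglia turn to an activated state, in which other genes such as Clec7a and Cst7 are induced. In bulk tissue, fewer microglia and less RNA per microglial cell cannot be told apart.

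The libraries held 24752362 to 41073906 counts. All 8 hippocampal markers looked up, among them Prox1 and Neurod6, were present in the table and tested. Visudyne 5 stood apart in the summed levels of 20 other microglial markers and of 10 blood leukocyte genes. The summed level of the 9 members there was 154.3 CPM (counts relative to a TMM-adjusted library size). That lay within the 143.2 to 170.0 CPM of the other Visudyne libraries. Visudyne 3 and 5 stood apart in choroid plexus transcripts. Ttr, the transthyretin gene, was there at 304.2 and 229.5 CPM. It was at 1.15 to 2.01 CPM in the other Visudyne libraries and at 1.83 to 8.03 CPM in vehicle. Each library also had its own trend of abundance with GC content, given as the slope of log2 abundance per 10 percentage points of GC. That slope was -0.54, -0.12, -0.22, -0.13 and 0.0079 in Visudyne 1 to 5, against 0.30, 0.16, 0.16, 0.405 and -0.020 in vehicle 6 to 10. Only Visudyne 5 and vehicle 10 broke the separation of the groups by this slope. Results are therefore given with and without Visudyne 5, and with the GC trend removed.

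Of the 9 members, 1 was called between the groups at an adjusted p under 0.05 by the edgeR quasi-likelihood test, Tmem119, which fell to 0.683 of its vehicle level in the Visudyne hippocampus. By the same rule 20.5% of the 15938 tested genes were called, 8.98% higher and 11.5% lower. The 1 of 9 does not exceed the background share, and 9 genes are too few to set it below. The members' estimates did not share a direction. P2ry12, Gpr34, Siglech and Sall1 had folds of 1.16 to 1.28, Cx3cr1 and P2ry13 of 1.05 and 1.01, and Aif1, Csf1r and Tmem119 of 0.95, 0.773 and 0.683. The median log2 fold change of the 9 was 0.06, against 0.01 for all tested genes. Without Visudyne 5, 4 of 9 members were called, P2ry12 and Gpr34 higher and Tmem119 and Csf1r lower, beside 31.5% of tested genes, 13.6% higher and 17.9% lower. After removal of the GC trend 0 of 9 were called by edgeR, beside 3.14% of tested genes (1.45% higher, 1.69% lower), and 2 members, Siglech and Sall1, both higher, had an unadjusted p under 0.05, as did 23.8% of tested genes. When Visudyne 5 was left out as well, 0 of 9 were called, beside 9.17% of tested genes (4.65% higher, 4.53% lower), and 3 had an unadjusted p under 0.05, as did 27.2% of tested genes. Without that removal DESeq2 called 4 of 9, P2ry12, Gpr34 and Siglech higher and Tmem119 lower, beside 27.7% of tested genes (12.5% higher, 15.2% lower). On the same terms limma-voom called Siglech higher and Tmem119 lower, beside 21.5% (9.29% higher, 12.2% lower). A stricter filter of at least 1 CPM in 5 libraries added Gpr34 and Siglech to Tmem119, beside 28.9% (13.4% higher, 15.5% lower). The background itself rested on single libraries, with 10 genes called without vehicle 6, 27 without Visudyne 3 and 309 without vehicle 9.

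**Figure D1:**
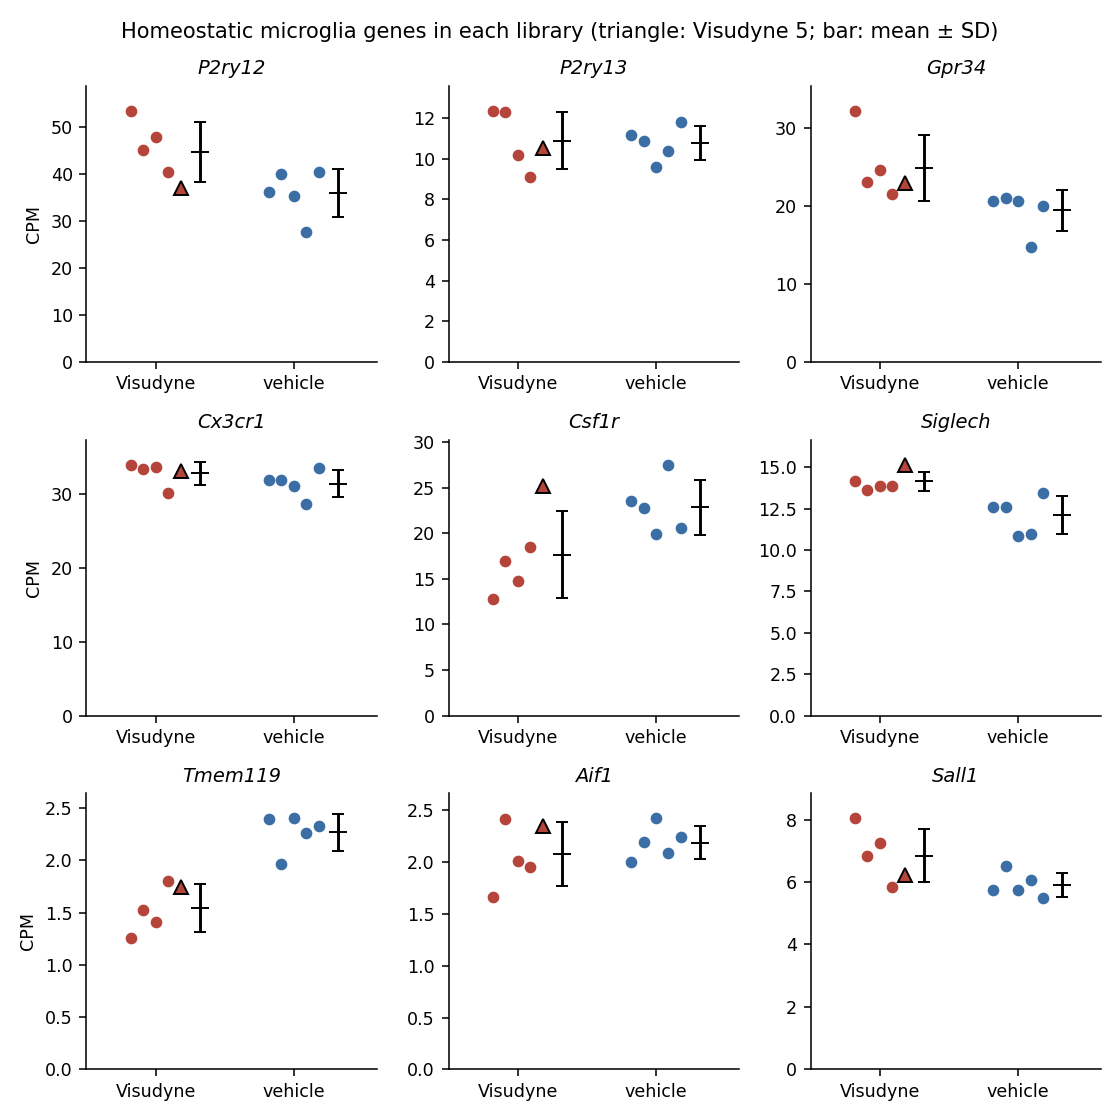
Abundance of the 9 members in CPM, with 1 point per library, 5 per group, Visudyne 5 as a triangle, and a black bar for the mean ± SD. Tmem119 lies between 1.26 and 1.80 CPM in Visudyne, below all vehicle libraries at 1.97 to 2.40 CPM, while Gpr34 and Siglech lie above vehicle and the other 6 members overlap.

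The members differed widely in level. Per kilobase of exon length, P2ry12 was the most abundant in both groups, at 17.6 ± 2.53 CPM per kb in Visudyne and 14.15 ± 2.03 CPM per kb in vehicle (SD, n = 5 each). Gpr34 followed at 11.9 ± 2.03 and 9.29 ± 1.25 CPM per kb, and Cx3cr1 at 7.29 ± 0.347 and 6.98 ± 0.397 CPM per kb. In Visudyne the order went on with P2ry13 at 4.31, Siglech at 4.18, Csf1r at 3.06, Aif1 at 1.36, Sall1 at 1.30 and Tmem119 at 0.669 CPM per kb. In vehicle it was P2ry13 at 4.25, Csf1r at 3.96, Siglech at 3.58, Aif1 at 1.43, Sall1 at 1.12 and Tmem119 at 0.98 CPM per kb. The SD ranges of P2ry13 and Siglech and of Aif1 and Sall1 overlapped in Visudyne, and those of P2ry13 and Csf1r, Csf1r and Siglech, and Sall1 and Tmem119 overlapped in vehicle, so these neighbours are not ordered beyond their spread. The summed CPM of the 9 was 143.2 to 170.0 in Visudyne and 130.5 to 150.1 in vehicle, groups that overlap. Csf1r and Siglech overlapped in vehicle only.

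P2ry12 and P2ry13 encode receptors for ADP, and P2ry12 guides microglial processes towards injured cells. They are neighbours on chromosome 3 of GRCm38, on the minus strand (P2ry12, ENSMUSG00000036353, 59216272 to 59262871; P2ry13, ENSMUSG00000036362, 59207892 to 59210882), and both lie within the gene Med12l on the other strand. Siglech (ENSMUSG00000051504, chromosome 7, 55768178 to 55778925), a receptor gene of the sialic acid-binding lectin family that signals through the adaptor Tyrobp, lies elsewhere. The RefSeq promoter windows of the 3 genes, 250 bases before to 50 bases after the start on GRCm38.p6, are shown because P2ry12 and P2ry13 are neighbours of related function, and because Siglech was 1 of the 2 members with an unadjusted p under 0.05 after removal of the GC trend. Capitals mark the letters GAGGAA or GGAAGT on either strand, forms of the site of Ets factors such as PU.1, which directs the myeloid lineage.
P2ry12, chr3:59262936-59263235, minus strand: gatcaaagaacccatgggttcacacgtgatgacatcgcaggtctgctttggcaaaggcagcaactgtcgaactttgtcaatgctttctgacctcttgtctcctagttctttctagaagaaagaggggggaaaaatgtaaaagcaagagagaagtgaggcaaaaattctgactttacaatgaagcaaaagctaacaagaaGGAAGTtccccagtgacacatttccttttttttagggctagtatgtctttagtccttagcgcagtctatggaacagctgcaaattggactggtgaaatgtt
P2ry13, chr3:59210833-59211132, minus strand: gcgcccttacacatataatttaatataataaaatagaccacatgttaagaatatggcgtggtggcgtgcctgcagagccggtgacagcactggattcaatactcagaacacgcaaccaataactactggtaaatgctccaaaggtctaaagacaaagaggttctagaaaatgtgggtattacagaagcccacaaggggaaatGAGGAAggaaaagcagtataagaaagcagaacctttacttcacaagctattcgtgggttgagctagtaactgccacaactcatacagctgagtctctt
Siglech, chr7:55767934-55768233, plus strand: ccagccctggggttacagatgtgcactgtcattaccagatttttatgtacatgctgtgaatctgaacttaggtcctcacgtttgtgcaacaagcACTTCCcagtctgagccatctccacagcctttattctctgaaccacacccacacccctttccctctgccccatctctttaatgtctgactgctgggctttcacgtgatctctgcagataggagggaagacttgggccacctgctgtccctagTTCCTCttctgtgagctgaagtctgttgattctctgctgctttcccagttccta

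P2ry12 held GGAAGT from base -51, P2ry13 held GAGGAA from base -48, and Siglech held both on the minus strand, from bases -4 and -156. Bases are counted from the RefSeq start. For P2ry12 that start lies outside the gene span given above, which ends at 59262871, as does the whole window from 59262936. No 2 of these marked runs overlapped. Windows were at hand for 6 members. Aif1 held GAGGAA, the Cx3cr1 window held neither, and 1 of the 3 Sall1 windows held GGAAGT. Over all 32851 windows of this length, 28.3% held GAGGAA, 23.8% held GGAAGT and 43.4% held either, so a match is common.

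P2ry12 stood at 53.5, 45.1, 47.9, 40.5 and 37.0 CPM in Visudyne 1 to 5, against 36.3, 40.1, 35.5, 27.7 and 40.6 CPM in vehicle 6 to 10. All 5 Visudyne libraries lay above the vehicle mean, and the groups overlapped at their edge. The log2 fold change was 0.31 (SE 0.12, adjusted p = 0.068 by edgeR). Without Visudyne 5, the lowest Visudyne library, it was 0.37 (adjusted p = 0.030 by edgeR), and with the GC trend removed 0.0078 (adjusted p = 0.97). P2ry12 transcripts are poor in GC, at 39.45%. Med12l, whose exons share 9 bases with P2ry12, had a Visudyne mean of 59.7 ± 4.89 CPM and a vehicle mean of 54.6 ± 3.72 CPM (SD, n = 5 each) and was not called (adjusted p = 0.19 by edgeR). The libraries came from a stranded kit, but whether the counting used the strand is not given in the sources used here.

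P2ry13 stood at 12.3, 12.3, 10.2, 9.10 and 10.5 CPM in Visudyne 1 to 5, against 11.2, 10.8, 9.58, 10.4 and 11.8 CPM in vehicle 6 to 10. The groups overlapped throughout, and the log2 fold change was 0.02 (SE 0.098, adjusted p = 0.90 by edgeR). There were 4.34, 3.67, 4.72, 4.45 and 3.51 P2ry12 counts per P2ry13 count in Visudyne 1 to 5, against 3.26, 3.70, 3.70, 2.67 and 3.43 in vehicle 6 to 10. Such a ratio within a library does not depend on how libraries are scaled, but it is not corrected for the GC trend. Visudyne 1, 3 and 4 lay above all vehicle libraries, and Visudyne 2 and 5 among them.

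Gpr34 (ENSMUSG00000040229, chromosome X, 13632089 to 13640858) encodes a receptor for lysophosphatidylserine, a lipid of stressed cells. It stood at 32.2, 23.0, 24.6, 21.5 and 22.9 CPM in Visudyne 1 to 5, against 20.6, 21.04, 20.6, 14.8 and 20.1 CPM in vehicle 6 to 10. The groups did not overlap, with Visudyne 1 far above the rest of its group and vehicle 9 far below. The log2 fold change of 0.36 missed the threshold (SE 0.12, adjusted p = 0.055 by edgeR), passed it without Visudyne 5 at 0.38 (adjusted p = 0.048), and was -0.02 with the GC trend removed (adjusted p = 0.94). At 36.8% GC, Gpr34 is the GC-poorest member. It lies within Cask on the other strand, with no exon base in common.

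Cx3cr1 (ENSMUSG00000052336, chromosome 9, 119901616 to 120069879), the fractalkine receptor gene, stood at 34.0, 33.4, 33.6, 30.1 and 33.1 CPM in Visudyne 1 to 5, against 31.9, 31.99, 31.1, 28.7 and 33.6 CPM in vehicle 6 to 10. The groups overlapped, and the 10 values kept within a narrow band. Its log2 fold change of 0.06 had the smallest standard error of the 9 (SE 0.058, adjusted p = 0.43 by edgeR), and it was 0.05 without Visudyne 5 and 0.11 with the GC trend removed.

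Csf1r (ENSMUSG00000024621, chromosome 18, 61100598 to 61132149), the receptor gene on which microglial survival depends, stood at 12.8, 17.0, 14.8, 18.5 and 25.3 CPM in Visudyne 1 to 5, against 23.6, 22.8, 19.95, 27.5 and 20.6 CPM in vehicle 6 to 10. Visudyne 1 to 4 lay below every vehicle library, and Visudyne 5 above all of them but vehicle 9. With all libraries the log2 fold change was -0.37 (SE 0.16, adjusted p = 0.10 by edgeR). Without Visudyne 5 it was -0.55 (SE 0.12, adjusted p = 0.012), the smallest adjusted p of any member in that fit. With the GC trend removed it was -0.12 (adjusted p = 0.49), and with Visudyne 5 left out as well it was not called. Csf1r shares 873 exon bases with Hmgxb3 on the other strand. Whether counting used the strand is not given, so their counts are uncertain. Exchange of counts between these genes was not tested. Hmgxb3, named after its values were seen, fell to 11.3 ± 2.31 CPM in Visudyne, against 17.1 ± 1.07 CPM in vehicle (adjusted p = 0.024 by edgeR, n = 5 each), and was still called lower after removal of the GC trend (adjusted p = 0.042).

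Siglech stood at 14.2, 13.7, 13.9, 13.9 and 15.2 CPM in Visudyne 1 to 5, against 12.6, 12.6, 10.9, 11.0 and 13.5 CPM in vehicle 6 to 10. The groups did not overlap, though the lowest Visudyne and the highest vehicle library nearly met. Its log2 fold change, 0.23, missed the threshold in the edgeR fit (SE 0.076, adjusted p = 0.053). It changed little without Visudyne 5, at 0.19 (adjusted p = 0.087), or with the GC trend removed, at 0.19 (adjusted p = 0.12). Sall1 (ENSMUSG00000031665, chromosome 8, 89027235 to 89044162), a transcription factor that holds microglia in their resting identity, stood at 8.04, 6.84, 7.25, 5.85 and 6.23 CPM in Visudyne 1 to 5, against 5.75, 6.50, 5.73, 6.08 and 5.47 CPM in vehicle 6 to 10. Its groups overlapped, and the log2 fold change in edgeR was 0.21 (SE 0.10, adjusted p = 0.14), which was 0.34 with the GC trend removed (adjusted p = 0.10).

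Tmem119 (ENSMUSG00000054675, chromosome 5, 113793729 to 113800516) encodes a membrane protein used to tell microglia from blood-derived macrophages. It stood at 1.26, 1.53, 1.40, 1.80 and 1.75 CPM in Visudyne 1 to 5, against 2.39, 1.97, 2.40, 2.26 and 2.32 CPM in vehicle 6 to 10. Every Visudyne library lay below every vehicle library. The log2 fold change was -0.55 (SE 0.14, adjusted p = 0.029 by edgeR), and -0.61 without Visudyne 5 (adjusted p = 0.016). With the GC trend removed it was -0.085 (SE 0.15, adjusted p = 0.78), and at 59.5% GC Tmem119 is the GC-richest member. The call was lost without Visudyne 1 (adjusted p = 0.056), Visudyne 3 (0.072), vehicle 6 (0.077) or vehicle 9 (0.061). The values rest on few counts, from 40 in Visudyne 1 (95% exact Poisson interval 28.6 to 54.5, for counting error only) to 106 in vehicle 8 (86.8 to 128.2).

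Aif1 (ENSMUSG00000024397, chromosome 17, 35170991 to 35176068) encodes the calcium-binding protein widely stained as a microglial marker. It stood at 1.66, 2.42, 2.01, 1.95 and 2.35 CPM in Visudyne 1 to 5, against 2.00, 2.20, 2.42, 2.09 and 2.24 CPM in vehicle 6 to 10. The groups overlapped, and edgeR put the log2 fold change at -0.07 (SE 0.14, adjusted p = 0.72). Across the members, then, 3 of 9 had groups that did not overlap, Gpr34 and Siglech higher and Tmem119 lower, where 12.5% of all tested genes did not overlap, 5.25% higher and 7.22% lower. Without Visudyne 5 there were 4 of 9, Csf1r joining them, where the share was 27.5%, 12.7% higher and 14.8% lower.

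**Figure D2:**
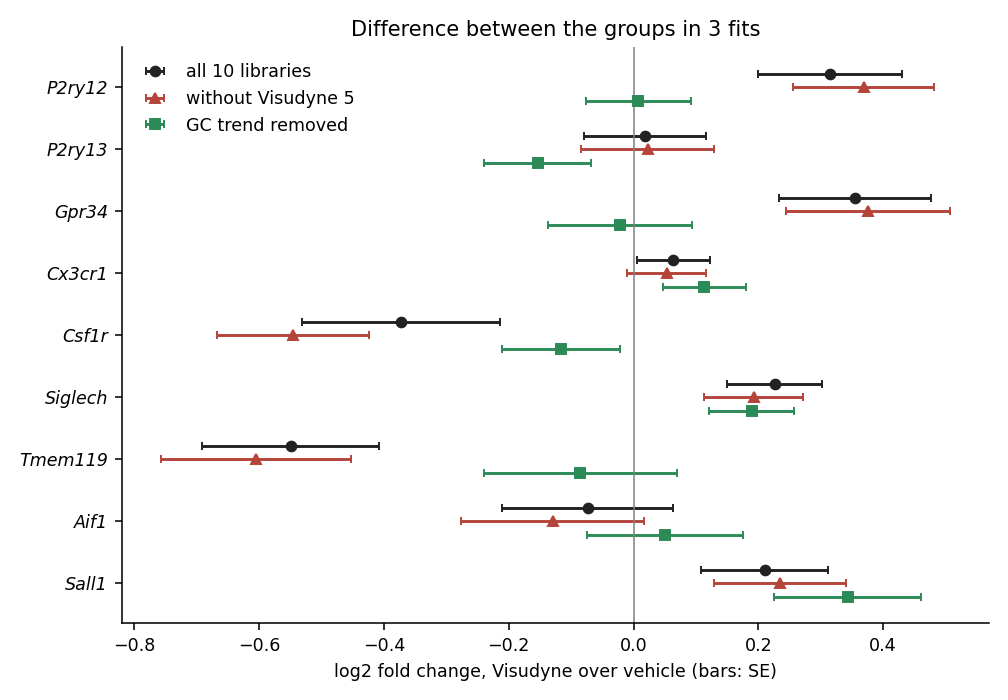
Log2 fold change of each member, Visudyne over vehicle, with its SE, with all 10 libraries (circles), without Visudyne 5 (triangles) and with the GC trend removed (squares). Tmem119 goes from -0.55 to -0.085 and P2ry12 from 0.31 to 0.0078 when the trend is removed, while Siglech stays at 0.23 and 0.19.

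Transcript GC content moved with the differences, over all genes and for part of the members; its part in them was measured only through the fits given here. The 746 tested genes with 35 to 40% GC, where Gpr34 and P2ry12 fall, had a median log2 fold change of 0.33, and the 2591 with 55 to 60% GC, where Tmem119 falls, one of -0.41. The 4064 genes with 50 to 55% GC had a median of -0.17. In that bin Csf1r was at -0.37 and Aif1 at -0.07, while Cx3cr1, at 0.06, and Sall1, at 0.21, were on the other side of 0. Siglech, at 0.23, lay above its bin's median of 0.06, and P2ry13, at 0.02, below its bin's median of 0.22. With each library's slope as a covariate, which nearly separates the groups, 0 of 9 members were called by edgeR, 0 had an unadjusted p under 0.05, and 0 of all genes were called (1032 with an unadjusted p under 0.05). Lymphatic ablation and the GC slope cannot be told apart beyond these fits.

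**Figure D3:**
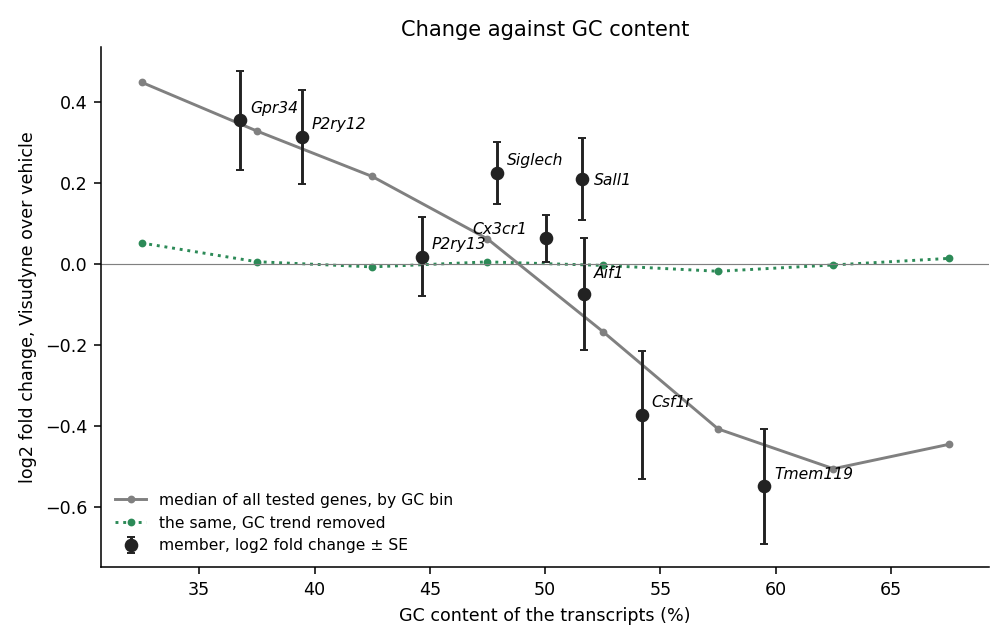
Log2 fold change of the 9 members (points, with SE) against the GC content of their transcripts in percent, with the median of all tested genes in bins of 5 percentage points before (grey line) and after removal of the GC trend (dotted line). The grey line runs from 0.45 in the lowest bin to -0.51 between 60 and 65% GC, and Gpr34 and P2ry12 lie near it at the left and Tmem119 at the right.

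Single libraries differed in the same members. Visudyne 1, with the lowest GC slope, had the highest value of the 10 libraries for P2ry12, P2ry13, Gpr34, Cx3cr1 and Sall1, and the lowest for Tmem119, Csf1r and Aif1. Vehicle 9, with the highest slope, had the lowest value for P2ry12, Gpr34 and Cx3cr1 and the highest for Csf1r. Between the highest and the lowest member, log2 CPM centred on the 10 libraries spread over 1.19 in Visudyne 1 and 1.03 in vehicle 9, against 0.25 to 0.68 in the other 8 libraries. With the GC trend removed these spreads were 0.76 and 0.53, against 0.25 to 0.57 in the other 8 libraries, so that vehicle 9 lay within their range. The mean of the 9 centred values lay between -0.068 and 0.064 in Visudyne and between -0.097 and 0.043 in vehicle.

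Counts set against P2ry12 within a library show the same spread among members. There were 2.35, 3.39, 2.93, 4.46 and 4.72 Tmem119 counts per 100 P2ry12 counts in Visudyne 1 to 5, against 6.58, 4.91, 6.77, 8.17 and 5.73 in vehicle 6 to 10, groups that did not overlap. For Csf1r there were 23.9, 37.6, 30.9, 45.7 and 68.2 per 100 P2ry12 counts in Visudyne 1 to 5, against 64.8, 56.8, 56.3, 99.5 and 50.7 in vehicle 6 to 10. Visudyne 1 to 4 were below all vehicle libraries and Visudyne 5 among them. These ratios were formed after the values were seen and are not tested. Neither of them is corrected for the GC trend. Both were lowest in Visudyne 1 and highest in vehicle 9, which had the lowest and the highest GC slope. Tmem119 is at 59.5% GC and P2ry12 at 39.45%. With the trend removed, their log2 fold changes were -0.085 and 0.0078.

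**Figure D4:**
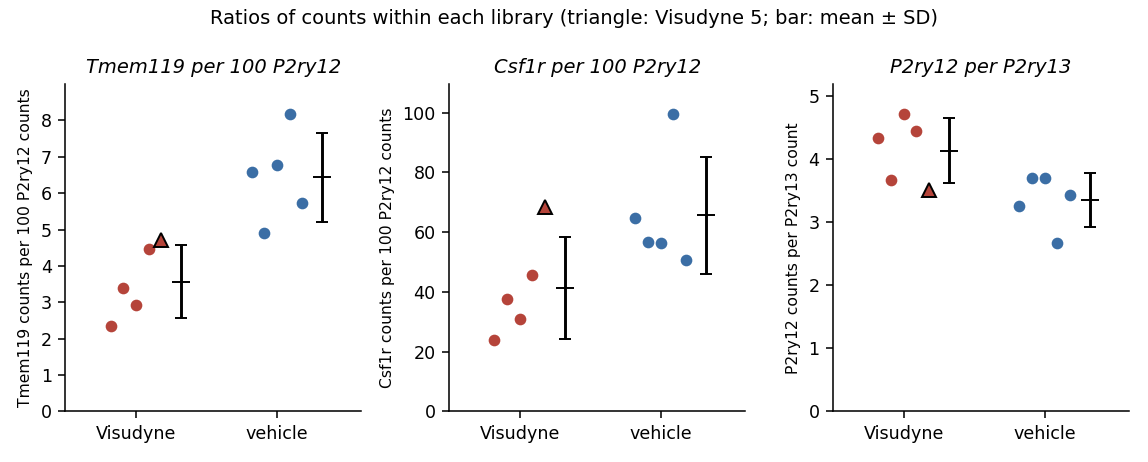
Ratios of counts within each library, with 1 point per library, Visudyne 5 as a triangle, and a black bar for the mean ± SD. The ratios are free of library scaling but not of the GC trend. Tmem119 per 100 P2ry12 runs from 2.35 to 4.72 in Visudyne and from 4.91 to 8.17 in vehicle.

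Genes that supply or handle the ligands of the members were next. Of 10 tested, 1 was called higher and 3 lower, with a median log2 fold change of -0.23, against 0.01 for all genes. All calls on the lists that follow were lost without Visudyne 3 or without vehicle 6, where edgeR called 0 genes of these lists. Counts on these lists stand beside the shares of all tested genes called in the same fit. Those shares were 8.98% higher and 11.5% lower with all libraries, and 13.6% higher and 17.9% lower without Visudyne 5. With the GC trend removed they were 1.45% and 1.69%, and with Visudyne 5 left out as well 4.65% and 4.53%. An unadjusted p under 0.05 was found for 39.8% of tested genes with all libraries and 23.8% with the GC trend removed. Cx3cl1, which encodes fractalkine, the neuronal ligand of Cx3cr1, fell to 56.9 ± 10.5 CPM in Visudyne, against 86.2 ± 15.0 CPM in vehicle (log2 fold change -0.60, adjusted p = 0.027 by edgeR, n = 5 each). Its groups did not overlap, and with the GC trend removed it was at -0.19 and not called (adjusted p = 0.072). Adam10, a protease that sheds fractalkine, rose 1.345-fold. Abhd16a and Abhd12, enzymes that make and break down lysophosphatidylserine, fell to 0.726 and 0.879 of their vehicle level. The Csf1r ligands were not called. Csf1 had a Visudyne mean of 6.11 ± 0.609 CPM and a vehicle mean of 7.35 ± 0.343 CPM (adjusted p = 0.052 by edgeR), and Il34 means of 2.92 ± 0.757 CPM in Visudyne mice and 4.19 ± 0.889 CPM in vehicle mice (adjusted p = 0.078). Both were called lower without Visudyne 5 (adjusted p = 0.032 and 0.037 by edgeR). Entpd1, an enzyme that removes extracellular ATP and ADP, had a Visudyne mean of 11.5 ± 1.22 CPM and a vehicle mean of 11.4 ± 0.755 CPM. After the GC correction 0 of the 10 were called by edgeR, and 2 had an unadjusted p under 0.05. When Visudyne 5 was left out as well, 1 was called higher and 0 lower.

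Of 9 tested signalling partners of the receptors 0 were called by edgeR, and 2 had an unadjusted p under 0.05, both lower. Without Visudyne 5, 4 were called lower, Tyrobp, Syk, Vav1 and Gnai2, beside 17.9% of all tested genes. After the GC correction 0 of the 9 were called by edgeR, with 2 lower at an unadjusted p under 0.05, and 1, Tyrobp, was called lower when Visudyne 5 was left out as well. Tyrobp, the adaptor of Siglech, stood at 1.04, 1.15, 0.894, 1.54 and 4.30 CPM in Visudyne 1 to 5, against 2.05, 2.37, 2.08, 2.88 and 1.81 CPM in vehicle 6 to 10. Visudyne 5 was the highest of the 10 and the other Visudyne libraries were the 4 lowest, so that Tyrobp was not called with all libraries (log2 fold change -0.31, adjusted p = 0.56 by edgeR) and was called lower without Visudyne 5 (log2 fold change -0.96, adjusted p = 0.011). After the GC correction with all libraries its log2 fold change was -0.07 (adjusted p = 0.92).

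Of 10 tested genes of TGF-beta signalling and the myeloid lineage, which maintain the resting state, 2 were called higher and 1 lower. Smad3, a mediator of TGF-beta signals, fell to 0.7745 of its vehicle level, while Itgb8, an integrin gene that activates TGF-beta, rose 1.31-fold and Mef2a, a transcription factor of many cell types, 1.25-fold. Tgfbr1 had a Visudyne mean of 56.7 ± 5.58 CPM and a vehicle mean of 48.45 ± 5.61 CPM and was not called (adjusted p = 0.082 by edgeR). Irf8, a factor of the microglial lineage, had means of 0.923 ± 0.104 CPM in Visudyne mice and 0.99 ± 0.173 CPM in vehicle mice (adjusted p = 0.69). Tgfb1 and Spi1, which encodes PU.1, were too low to be tested, at no more than 0.161 and 0.287 CPM in any library. After the GC correction 0 of the 10 were called by edgeR, and 3 had an unadjusted p under 0.05. When Visudyne 5 was left out as well, 1 was called higher and 0 lower.

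Of 19 tested other microglial markers, 3 were called higher and 0 lower by edgeR, with 2 lower at an unadjusted p under 0.05 and a median log2 fold change of -0.0051. Among the 3, Ptprc, the pan-leukocyte phosphatase gene, rose to 5.99 ± 1.40 CPM in Visudyne, against 4.38 ± 0.146 CPM in vehicle, and Cd53, a leukocyte tetraspanin gene, rose 1.25-fold (adjusted p = 0.041 and 0.043 by edgeR, n = 5 each). The GC-poor Ptprc and Cd53 had log2 fold changes of 0.17 and 0.03 with the GC trend removed, neither of them called. Sparc, a matrix protein gene, was then the 1 marker called, higher. It was at 83.2 CPM in Visudyne 5, against 54.3 to 60.0 CPM in the other Visudyne libraries and 52.1 to 63.3 CPM in vehicle. Without Visudyne 5 and without the GC correction, the Sparc log2 fold change was -0.0018 (adjusted p = 0.99 by edgeR). When Visudyne 5 was left out the Cd53 log2 fold change was 0.27, against 0.32 with all libraries, and was not called (adjusted p = 0.066 by edgeR). That of Ptprc was 0.29, against 0.45 with all libraries, and Ptprc was then the 1 marker called higher (adjusted p = 0.035 by edgeR). In that fit 4 were called lower, C1qa, C1qb, Fcrls and Laptm5, beside 13.6% of all tested genes higher and 17.9% lower. With the GC trend removed and Visudyne 5 left out, 1 marker was called higher and 1 lower.

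The summed level of these 20 markers was 407.9 CPM in Visudyne 5, against 289.1 to 303.2 CPM in the other Visudyne libraries and 280.2 to 301.8 CPM in vehicle. Of the 20, 14 were highest in Visudyne 5, while of the 9 members only Siglech was. Ly86, a gene of innate immune receptor complexes named after its values were seen, was at 12.8 CPM there and at 5.73 to 7.16 CPM in the other 9 libraries. Ctss, a lysosomal protease gene, was at 69.1 CPM there, against 40.2 to 46.2 CPM in the other Visudyne libraries and 32.8 to 45.3 CPM in vehicle. Of 13 tested genes linked to activated microglia 1 was called higher, Lpl at 1.315-fold, and 1 lower, Apoe at 0.604 of its vehicle level, which astrocytes also express. Without Visudyne 5, 1 was called higher, Lpl, and 4 lower, Apoe, Ctsb, Ctsd and Ctsz. Of all tested genes 13.6% were then called higher and 17.9% lower. After the GC correction 0 of the 13 were called by edgeR, with 3 at an unadjusted p under 0.05. Apoe then had a log2 fold change of -0.25 (adjusted p = 0.12) and Lpl of 0.33 (adjusted p = 0.096). When Visudyne 5 was left out of that fit, 1 of the 13 was called higher and 2 lower. Of the 19 genes of this list 7 were highest in Visudyne 5, and their summed level there, 593.6 CPM, was above the other Visudyne libraries at 433.7 to 500.3 CPM and within the vehicle range of 525.1 to 605.3 CPM. Spp1, Axl, Gpnmb, Lpl and Apoe lay within the range of the other 9 libraries, and Lgals3 was lowest in Visudyne 5. Among the 7, 3 genes too low to be tested are named here after their values were seen. Clec7a, a receptor gene of activated microglia, had 176 counts in Visudyne 5 and 1 to 35 in the other 9 libraries, Cst7, an inhibitor of lysosomal proteases, 99 counts and 0 to 8, and Itgax, an integrin gene, 35 counts and 0 to 9. In the same library P2ry12 was at 37.0 CPM, Cx3cr1 at 33.1 CPM, Tmem119 at 1.75 CPM and P2ry13 at 10.5 CPM, each within the range of the other 9 libraries.

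**Figure D5:**
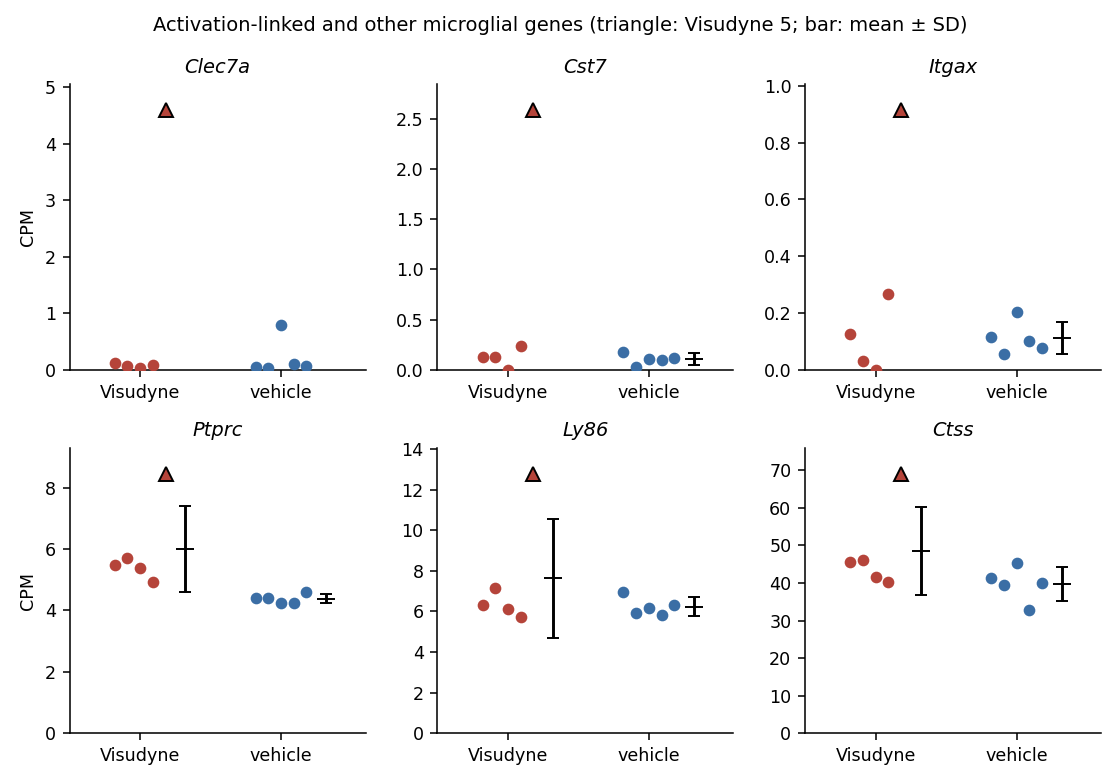
Abundance in CPM of 3 genes linked to activated microglia (top) and 3 other microglial genes (bottom), with 1 point per library, Visudyne 5 as a triangle, and a black bar for the mean ± SD, which is left out where the SD exceeds the mean. Clec7a is at 4.59 CPM in Visudyne 5 and at most 0.793 CPM in the other 9 libraries, and Ptprc, Ly86 and Ctss are also highest there.

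Markers of other myeloid and blood cells were low. The summed level of 10 blood leukocyte genes was 6.10 CPM in Visudyne 5, against 2.48 to 3.01 CPM in the other Visudyne libraries and 1.95 to 3.23 CPM in vehicle. S100a8 and S100a9, neutrophil genes, had 55 and 56 counts in Visudyne 5 and at most 10 and 6 in any other library. Of the T cell genes, Cd3e had 0 counts in Visudyne 5, against 0 to 3 in the other libraries. Cd3d had 39, against 16 to 40, and Trbc2 6, against 1 to 11. Cd79a, of B cells, had 1 count in Visudyne 5. Their part in the microglial values of that library was not tested. The summed level of 10 genes of border macrophages was 6.88 to 10.1 CPM in Visudyne and 8.81 to 12.9 CPM in vehicle, with Visudyne 5 at 8.27 CPM. Of 6 tested, 2 were called, both lower, Lyve1 at 0.578 and Stab1 at 0.584 of the vehicle level, and Mrc1 had a Visudyne mean of 4.05 ± 0.975 CPM and a vehicle mean of 4.83 ± 0.977 CPM (adjusted p = 0.30 by edgeR). After the GC correction 0 of the 6 were called by edgeR, with 4 lower at an unadjusted p under 0.05. The adjusted p was then 0.054 for Lyve1, 0.14 for Stab1 and 0.068 for Mrc1 (log2 fold change -0.53). Of 6 tested receptors related to the members' purine and lipid receptors 0 were called by edgeR and 2 had an unadjusted p under 0.05, both higher. One of them, Gpr82, the neighbour of Gpr34 within Cask, had a Visudyne mean of 1.29 ± 0.487 CPM and a vehicle mean of 0.683 ± 0.24 CPM (adjusted p = 0.053 by edgeR, n = 5 each), and is named after its values were seen. Gpr82 is poor in GC, at 35.04%. Its log2 fold change was 0.94 with all libraries and 0.56 with the GC trend removed (adjusted p = 0.20 by edgeR). Called higher among markers of other tissue cells were Ttr of choroid plexus, Slco1a4 of endothelium and Map2 of neurons. Ttr had an adjusted p of 0.043 by edgeR, and 0.052 without Visudyne 5. Called lower were Cnp, Mbp and Mog of oligodendrocytes, Slc17a7 of excitatory neurons and Wfs1 of hippocampal field CA1. Tested were 7 genes of choroid plexus, 7 of endothelium, 8 of neurons, 6 of oligodendrocytes, 8 of hippocampus and 7 of astrocytes. Of the astrocyte genes 0 were called. With the GC trend removed Slc17a7 stayed called (adjusted p = 0.046 by edgeR), and the other genes named here did not. In that fit 1 other oligodendrocyte gene was called lower and 1 other neuron gene higher. The part of all these genes in the members' values was not tested.

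Over the 10 libraries, the mean standardized profile of the members was closest to Cx3cr1 among them (Pearson r = 0.95 over 10 libraries), and ran against Tmem119 (r = -0.54) and Csf1r (r = -0.43). Each member is part of this profile, which raises its coefficient, so these values cannot be compared with those of genes outside the set. The protein-coding genes outside the set with the most similar profile were Clpx (r = 0.89), Sec22a (r = 0.88), Zfp420 (r = 0.87), Fam19a2 (r = 0.87) and Uevld (r = 0.86). Over the 9 libraries without Visudyne 5 they were Sec22a (r = 0.95), Clpx (r = 0.92), Ltv1 (r = 0.92), Pstk (r = 0.92) and Hebp2 (r = 0.90). None of these is on the marker lists used here. The libraries share scaling and base composition, so the coefficients describe these libraries and no test is attached to them.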

How the data were processed

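Per the labels' protocols, hippocampal total RNA was made into stranded total RNA libraries. FastQC, Salmon and mm10 are named, per the submitters' processing notes. The authors deposited estimated counts per gene, already whole numbers, and the 20 largest values are multiples of 10. Which annotation and gene-level summing they used is not given in the sources used here. Symbols, positions, exon lengths and GC content came from GENCODE M21 on GRCm38, the assembly named mm10, for 27053 of 27343 identifiers, and promoter windows from RefSeq. Libraries of a group differed by more than sampling noise (lowest chi-square 13.4 per degree of freedom), and their separateness as mice rests on the labels, so p-values measure the spread between these samples.

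Visudyne was set against vehicle by the edgeR 4.0.16 quasi-likelihood test in R 4.3.3 (filterByExpr, TMM, two-sided) over 15938 genes, all 9 members included, with Benjamini-Hochberg adjustment. SE is the log2 fold change over the square root of F. The GC trend of each library (loess, span 0.3, log2 CPM with a prior count of 2) was removed through offsets. DESeq2 1.42.0 and limma 3.58.1 (voom) were alternatives among 21. The test was also run on simulated counts, drawn independently for each gene, with and without the GC trends. These held no other deviation shared by the genes of a library. The check therefore does not cover the dependence of the calls on single libraries. Members, 15 context lists, tests and alternatives were chosen with earlier results of these data known. Named are all members, up to 4 called genes of each list (smallest p), a panel (Cx3cl1, Csf1, Il34, Tgfb1, Tgfbr1, Tyrobp, Entpd1, Ptprc, Spi1, Irf8, Mrc1, Ttr and Med12l), and the 5 genes most like the members by correlation. A few genes of the lists are not reported here. Genes called only in an alternative are named after their values were seen.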

Additional observations from a re-analysis of the deposited data

Results flagged for a closer look

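In groups of 5, a library was picked out when its gap to the nearest other exceeded 0.71 of the group's range, which chance gives in about 1 in 20 groups. Of 50 groups looked at, 5 had one. Cx3cr1 was at 30.1 CPM in Visudyne 4, below 33.1 to 34.0 CPM in the other Visudyne libraries. Gpr34 was at 32.2 CPM in Visudyne 1, above 21.5 to 24.6 CPM in the others, and at 14.8 CPM in vehicle 9, below 20.05 to 21.04 CPM in the other vehicle libraries. Visudyne 1 and vehicle 9 are the libraries with the lowest and the highest GC slope. The summed level of 20 other microglia markers was 407.9 CPM in Visudyne 5, above 289.1 to 303.2 CPM in the others. The summed level of 10 blood leukocyte genes was 6.10 CPM there, above 2.48 to 3.01 CPM.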

How the results depend on the processing

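No paired analysis was possible because the replicate numbers run from 1 to 5 in Visudyne and from 6 to 10 in vehicle. Genes called, 3261, were 2075 without a filter on low counts, 501 with the GC trend removed, 662 with GC and length trends removed, 0 with the GC slope as a covariate, 1469 with the GC trend removed and Visudyne 5 left out, and 10 to 5047 without 1 library (10 without vehicle 6, 27 without Visudyne 3). Members called, 1, were 3 with at least 1 CPM in 5 libraries, 4 by DESeq2, 2 by limma-voom, 0 in each of the 4 GC settings, and 0 to 4 without 1 library (0 without Visudyne 1 or 3 or vehicle 6 or 9, 2 without vehicle 10, 4 without Visudyne 5). Of the context genes, 22 were called, against 4 with the GC trend removed, 5 with GC and length, 0 with the slope, 12 with the trend and Visudyne 5 removed, and 0 to 44 without 1 library. The members' median, 0.06, was -0.14 with total counts, 0.0078 once the GC trend was removed and -0.033 with the slope, where the median of all genes was -0.19, -0.0015 and 0.02.

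Tmem119, the member called with all libraries, kept its sign. With total counts P2ry13 was at -0.19, Cx3cr1 at -0.14 and Sall1 at -0.0027. With the GC trend removed, GC and length removed, the slope, and the trend without Visudyne 5, P2ry13 was at -0.15, -0.15, -0.13 and -0.16, Gpr34 at -0.021, -0.029, -0.0405 and -0.0074, and Aif1 at 0.0501, 0.0532, 0.084 and 0.0334. With the slope P2ry12 was at -0.088, Cx3cr1 at -0.03 and Csf1r at 0.17. P2ry13 also turned without Visudyne 1 (-0.0292), Visudyne 2 (-0.0275), vehicle 8 (-0.0284) and vehicle 9 (-0.0019), within -0.0292 to 0.0777 over the fits without 1 library. The cause of these turns was not tested. Siglech kept its direction in all 21 alternatives, at 0.03 to 0.26, and Tmem119 at -0.74 to -0.047, called in 13. Depth limits Tmem119 and Aif1 most.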
